A study of Mus musculus with 2 samples.

Results

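The guidance genes described here are the semaphorins and ephrins, which act as ligands, and the plexins and Eph receptors, which receive them. Members were chosen by gene symbol and by a minimum of 50 unique molecular identifiers (UMIs, each marking 1 captured RNA molecule) over both libraries. Of 26033 genes, 51 carried such a symbol and 48 passed the minimum: 19 semaphorins, 9 plexins, 8 ephrins and 12 Eph receptors. Epha8 with 22 UMIs, Epha10 with 19 and Sema4f with 21 fell below it. The members came from droplet-based single-cell RNA sequencing of sorted cells from whole brains of adult mice. The control library was made from Csf1rfl/fl mice, whose gene for the macrophage growth factor receptor CSF1R is flanked by loxP sites. The mutant library was made from Mrc1Cre:Csf1rfl/fl mice, which carry the same floxed gene together with a Cre recombinase expressed from the Mrc1 locus, a gene of border-associated macrophages (BAMs). Both libraries pooled cells sorted as mural cells and fibroblasts (CD13 and/or CD140a, without O4), endothelial cells (CD31), astrocytes (ACSA-2), BAMs (high CD11b with F4/80) and microglia (CD11b with high F4/80). There was 1 library per genotype, and the number of animals behind each is not given in the sources used here. No difference between genotypes could therefore be tested.

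Semaphorins are secreted or membrane-bound proteins that steer axons, vessels and immune cells by binding plexins, and the class 3 semaphorins mostly need a neuropilin as co-receptor. Plexins collapse the actin skeleton of the receiving cell through their GTPase-activating domain. Ephrins are anchored to the membrane and bind Eph receptor tyrosine kinases on the neighbouring cell, so that signals can run in both directions; in vessels, ephrin-B2 is known as an arterial and EphB4 as a venous marker.

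The control and mutant libraries held 8739 and 8735 barcodes with 85716531 and 82806348 UMIs, a median of 7998 and 8236 per barcode, and 17 barcode sequences occurred in both. After filtering, 5614 control and 6130 mutant cells were kept, and 10 cell classes were named from marker genes, written "X-like" because they rest on RNA alone. Microglia-like cells numbered 2833 and 2924 (control, then mutant), choroid plexus epithelium-like cells 635 and 1075, astrocyte-like cells 670 and 242, BAM-like cells 357 and 143, and endothelial-like cells 128 and 183. The other 5 classes held under 50 cells in at least 1 library. No pericyte-like or smooth muscle-like class was named although mural cells were sorted: the pericyte markers were highest in cluster 19, at 18127 and 4879 CPM summed, with 17 and 31 cells that also carried microglial markers. Cluster 12, with 137 and 422 cells, was led by Slc47a1 and Igfbp6 and had too few markers for a name. Csf1r itself was at 1509 CPM (UMIs per 1000000 UMIs of the class) in control and 1250 CPM in mutant BAM-like cells, and at 2355 and 1867 CPM in microglia-like cells. Which part of the gene the loxP sites flank is not given in the sources used here, so a 3′ tag need not report the deletion. Pituitary endocrine markers summed to 63480 CPM in control and 39.9 CPM in mutant cells of the unnamed cluster 4, and to 65.5 to 431 CPM in control against 0 to 82.4 CPM in mutant cells of the named classes. The part of this difference between the libraries in the results was not tested.

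The ligand and receptor sides were distributed unequally over the classes. Receptor UMIs outnumbered ligand UMIs in microglia-like cells with a ratio of 1.8 in control and 2.1 in mutant cells, and in BAM-like cells with ratios of 1.75 and 1.45. Ligands outnumbered receptors in endothelial-like cells, where the receptor to ligand ratio was 0.399 and 0.39, in astrocyte-like cells, at 0.54 and 0.539, and in oligodendrocyte-like cells, at 0.405 and 0.453. Choroid plexus epithelium-like cells were near parity, at 1.17 and 1.03. All ratios are of UMIs, which a 3′ assay counts once per molecule, so no division by gene length was made.

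Summed over the family, semaphorins reached 1862 CPM (95% interval 1749 to 1981) in control and 1954 CPM (1851 to 2061) in mutant endothelial-like cells. Astrocyte-like cells followed with 1014 CPM (990 to 1038) and 1107 CPM (1061 to 1154). Intervals here and below are exact Poisson limits on the counts, or exact conditional limits for a ratio. They reflect counting error alone and leave out how cells or animals vary. Plexins summed to 625 CPM (615 to 634) and 644 CPM (635 to 654) in microglia-like cells. Among the named classes only the few neuron-like cells held more, at 726 and 773 CPM. Endothelial-like cells followed at 527 and 544 CPM, fibroblast-like cells at 524 and 468 CPM and BAM-like cells at 507 and 447 CPM, while astrocyte-like cells held 303 and 331 CPM and choroid plexus epithelium-like cells 117 and 118 CPM. Ephrins and Eph receptors were sparse in the macrophage classes. In microglia-like cells the ephrins summed to 46.0 and 42.2 CPM and the Eph receptors to 24.6 and 26.3 CPM, against 323 CPM (310 to 337) and 344 CPM (318 to 370) of Eph receptors in astrocyte-like cells. In BAM-like cells the ephrins summed to 13.1 and 9.23 CPM and the Eph receptors to 31.7 and 10.7 CPM.

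**Figure D1:**
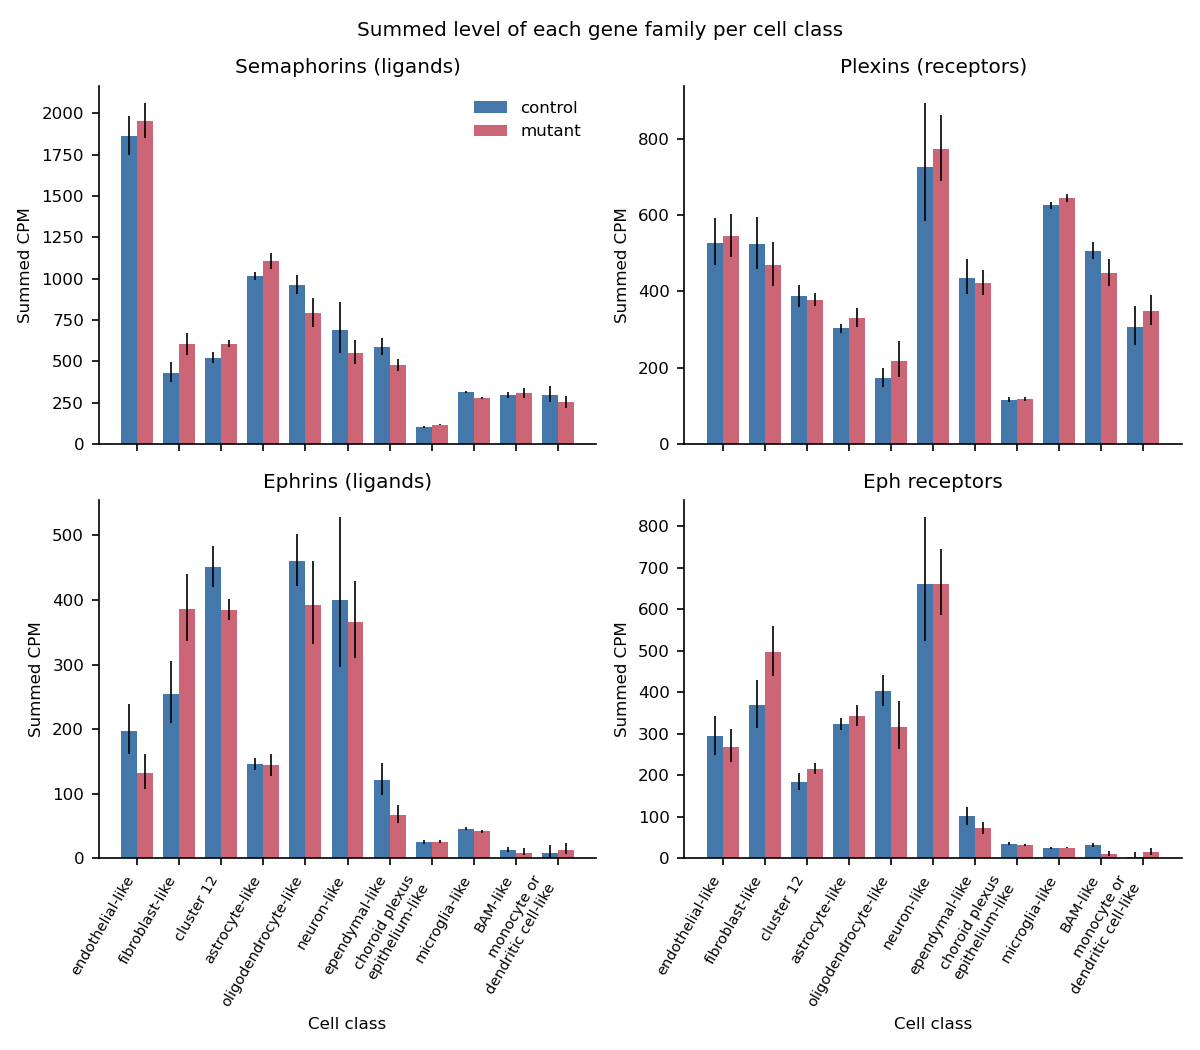
Summed CPM of the semaphorins, plexins, ephrins and Eph receptors (y axes, each starting at 0) in 10 named classes and cluster 12 (x axis), for the control (blue) and mutant (red) library; error bars are exact Poisson 95% intervals. Endothelial-like cells have the highest semaphorin bars, 1862 and 1954 CPM. The macrophage classes have tall plexin bars, as do neuron-like, endothelial-like and fibroblast-like cells, and very short ephrin and Eph receptor bars.

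A member was called led by 1 class when it was highest in the same named class in both libraries and at least 3 times the next class in each. This held for 14 of the 48 members (29.2%), against 15.1% of 16341 genes with as many UMIs. The guidance genes were barred from the 2000 variable genes that defined the classes, while some of the other genes were among them, so these shares are not on an equal footing. Of the 48, 41 had the same highest class in both libraries. Endothelial-like cells led 7 members, oligodendrocyte-like cells 3 (Plxnb3, Ephb1 and Efnb3), fibroblast-like cells 2 (Epha7 and Sema3d), neuron-like cells Ephb2 and ependymal-like cells Sema3e. No member was led by microglia-like, BAM-like, astrocyte-like or choroid plexus epithelium-like cells under this rule.

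**Figure D2:**
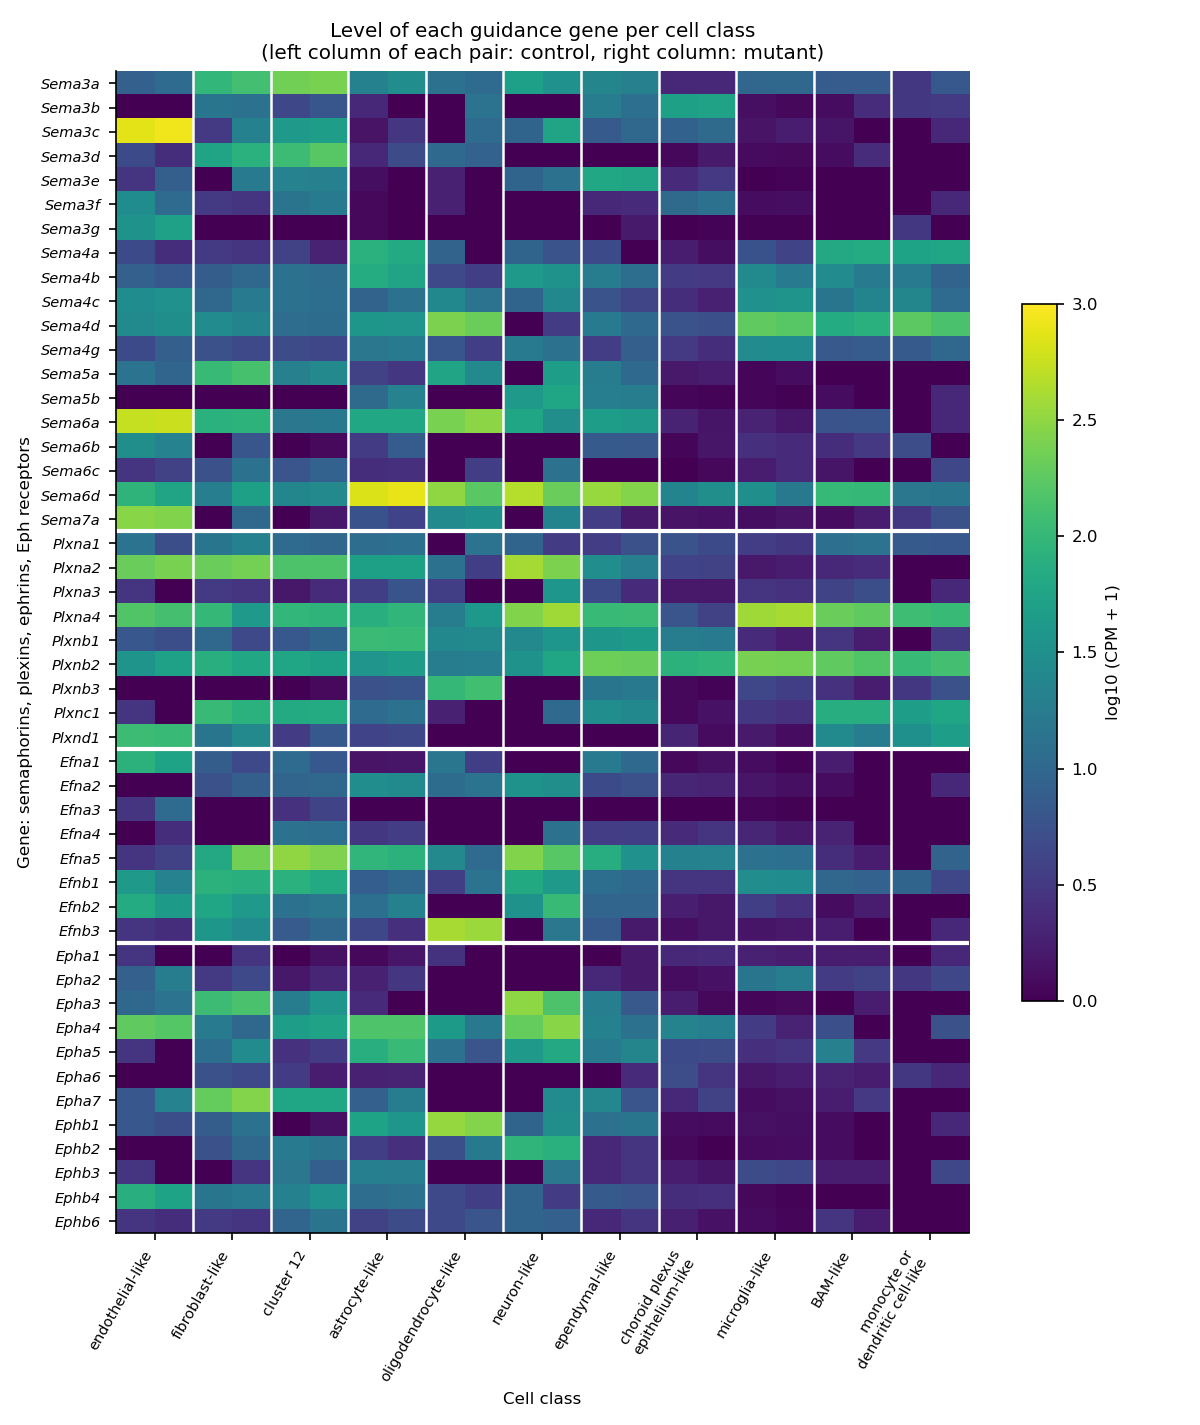
Level of each of the 48 genes (rows, grouped from top to bottom as semaphorins, plexins, ephrins and Eph receptors) in 10 named classes and cluster 12 (columns in pairs, control left and mutant right), coloured by log10 of CPM plus 1. Paired columns look alike for most genes; Sema3c and Sema6a stand out in endothelial-like, Sema6d in astrocyte-like and Plxna4 and Plxnb2 in microglia-like cells.

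The endothelial-led members were 4 semaphorins (Sema3c, Sema3g, Sema6b, Sema7a), 2 ephrins (Efna1, Efna3) and the receptor Ephb4. Promoter sequence is shown for a ligand and a receptor of this group, Sema7a (gene at chr9:57940112-57962865, plus strand) and Ephb4 (gene at chr5:137350109-137378669, plus strand), because erythroblast transformation-specific (ETS) factors are known regulators of endothelial genes and bind sites with a GGAA core. Each sequence holds the 250 bases before the RefSeq start on GRCm38.p6, written 5′ to 3′ on the gene's strand, with GGAA and its reverse complement TTCC in capitals; they lie at chr9:57939862-57940111 and chr5:137349859-137350108.
Sema7a: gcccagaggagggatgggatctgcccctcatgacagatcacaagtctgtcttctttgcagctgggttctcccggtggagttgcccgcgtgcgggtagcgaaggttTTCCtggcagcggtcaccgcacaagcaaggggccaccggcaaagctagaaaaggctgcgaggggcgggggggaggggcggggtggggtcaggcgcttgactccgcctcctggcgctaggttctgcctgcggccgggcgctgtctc
Ephb4: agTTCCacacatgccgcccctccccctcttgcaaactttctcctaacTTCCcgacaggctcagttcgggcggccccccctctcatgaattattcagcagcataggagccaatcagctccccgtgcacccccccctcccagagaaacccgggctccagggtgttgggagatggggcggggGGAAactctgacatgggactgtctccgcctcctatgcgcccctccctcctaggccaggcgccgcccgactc
Sema7a held 1 match and Ephb4 held 3. GGAA on either strand occurred in 93.4% of 27025 RefSeq promoters of the same length and in 39 of the 42 members with a listed promoter, so a match of these 4 letters is common. The longer CCGGAA, whose matches are also GGAA matches, occurred in 12.2% of promoters and in 5 of the 42 members, none of them led by endothelial-like cells. A match is a description of the letters, not evidence of binding.

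Sema3c, a secreted semaphorin that signals through neuropilins and plexin-D1, was at 751 CPM (680 to 828) in control and 864 CPM (796 to 936) in mutant endothelial-like cells. In the next class it was at 8.15 and 55.7 CPM, and in microglia-like cells at 0.421 and 0.688 CPM. With every cell thinned to 2000 UMIs, 63.4% of control and 65.9% of mutant endothelial-like cells held a Sema3c UMI, against 0.0732% and 0.144% of microglia-like cells, so the level was spread over most of the cells. Unthinned shares were 73.4% and 76.0%, at median depths of 3900.5 and 3320 UMIs, against 0.388% and 0.581% of microglia-like cells at 8686 and 8533 UMIs. Thinning left out 27 of 128 and 54 of 183 endothelial-like cells. Sema7a, a membrane-anchored semaphorin, was at 290 CPM (247 to 339) and 271 CPM (233 to 312). Sema3g, which is known from arterial endothelium, was lower, at 33.3 CPM (19.7 to 52.6) and 50.4 CPM (35.1 to 70.1), from 18 and 35 UMIs. Efna1, a ligand of EphA2, was at 83.2 and 54.7 CPM and Sema6b, a transmembrane semaphorin, at 29.6 and 20.2 CPM. Efna3 met the rule on 1 control and 7 mutant UMIs only.

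Sema6a, a transmembrane ligand of plexin-A2 and plexin-A4, was also highest in endothelial-like cells, at 546 CPM (485 to 612) and 576 CPM (521 to 635). It missed the led rule because oligodendrocyte-like cells held 245 and 297 CPM. On the receptor side, endothelial-like cells held Plxna2 at 205 and 248 CPM, Epha4 at 185 and 160 CPM and Plxnd1, the vascular receptor of class 3 semaphorins, at 113 and 107 CPM. Plxnd1 passed the led rule in the control library, where it was 3.66 times the next class, but not in the mutant library, where it was 2.3 times. The neuropilins, co-receptors for class 3 semaphorins, were abundant in the same cells: Nrp1 was at 962 CPM in control and 677 CPM in mutant endothelial-like cells.

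Ephrin-B2 and its receptor EphB4, the arterial and venous pair, were both present in endothelial-like cells. Efnb2 was at 68.4 CPM (48.2 to 94.3) and 41.8 CPM (28 to 60) and Ephb4 at 74.0 and 53.3 CPM. Of 128 control cells, 30 held an Efnb2 UMI, 31 an Ephb4 UMI and 9 both; of 183 mutant cells, 23 held Efnb2, 31 held Ephb4 and 7 held both. Most cells, 76 and 136, held neither at this depth.

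The most abundant members in microglia-like cells were plexins. Plxna4, a receptor for class 6 semaphorins and part of the class 3 receptor complex, was at 370 CPM (363 to 378) in control and 400 CPM (393 to 407) in mutant cells. Plxnb2, a receptor for class 4 semaphorins, was at 242 CPM (236 to 247) and 235 CPM (229 to 240). The main ligand was Sema4d, a membrane semaphorin that binds B-type plexins, at 182 CPM (177 to 187) and 165 CPM (160 to 170). These 3 genes were far above the rest of the module in microglia-like cells. Sema4c followed at 32.3 and 34.8 CPM, Efnb1 at 28.8 and 27.4 CPM and Sema4g at 26.8 and 27.9 CPM. Among the Eph receptors only Epha2 exceeded 10 CPM in microglia-like cells, at 13.8 CPM (12.4 to 15.2) and 17.3 CPM (15.8 to 18.9).

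BAM-like cells shared Plxna4, at 203 CPM (189 to 217) and 185 CPM (164 to 209), and Plxnb2, at 186 CPM (173 to 199) and 152 CPM (132 to 174). They held several members that microglia-like cells held at low levels. Sema6d, a transmembrane ligand of plexin-A1, was at 102 and 98 CPM in BAM-like against 29.8 and 15.5 CPM in microglia-like cells. Plxnc1, the receptor of Sema7a, was at 73.2 and 72.4 CPM in BAM-like cells. Sema4a, an immune semaphorin with plexin-D1 among its receptors, was at 63.5 and 69.6 CPM in BAM-like and 4.7 and 3.12 CPM in microglia-like cells. Plxnd1 was at 26.2 and 17.8 CPM in BAM-like cells. Sema4a, Plxnc1 and Plxnd1 were not particular to BAM-like cells. Monocyte or dendritic cell-like cells held Sema4a at 53.4 and 56.6 CPM, Plxnc1 at 47.2 and 58.8 CPM and Plxnd1 at 30.8 and 46.4 CPM. Sema4d was lower in BAM-like than in microglia-like cells, at 69.8 and 78.8 CPM. Each of the orders given between BAM-like and microglia-like cells was the same in both libraries. Nrp1 was at 903 and 885 CPM in BAM-like against 253 and 250 CPM in microglia-like cells.

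Sema6d dominated the module in astrocyte-like cells. It was at 695 CPM (676 to 715) in control and 791 CPM (752 to 831) in mutant cells, 68.6% and 71.4% of all semaphorin UMIs there. The Eph receptor Epha4, which binds both ephrin classes, was at 147 CPM in both libraries. Plxnb1, a receptor of Sema4d, was at 111 and 107 CPM, and Efna5, a ligand of EphA receptors, was at 92.8 and 84.6 CPM. Epha5, a receptor for A-type ephrins, was at 76.6 CPM (70.2 to 83.5) and 103 CPM (89.6 to 118).

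The 3 clusters of astrocyte-like cells, which had been separated without the guidance genes, differed in them. Cluster 6 (201 and 55 cells, led by Hapln1 and Lhx2) held Ephb1, an ephrin-B receptor, at 147 CPM (131 to 165) and 136 CPM (106 to 173). In cluster 8 (435 and 161 cells, led by Kcnd2 and Grm5) Ephb1 was at 12.9 CPM (9.76 to 16.7) and 4.78 CPM (1.76 to 10.4). Epha5 had the same order, at 126 and 213 CPM in cluster 6, 59.7 and 79.7 CPM in cluster 8, and 1 and 0 UMIs in cluster 18. Cluster 18 (34 and 26 cells, led by Gria4 and Gdf10) was the opposite for other members. It held Sema6d at 1113 CPM (1009 to 1225) and 1480 CPM (1330 to 1643), Plxna2 at 181 and 122 CPM and Efnb2 at 136 and 122 CPM. In clusters 6 and 8 Plxna2 was at 34.3 to 54.9 CPM and Efnb2 at 1.59 to 16.3 CPM. Epha4 was highest in cluster 8, at 180 and 165 CPM.

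**Figure D3:**
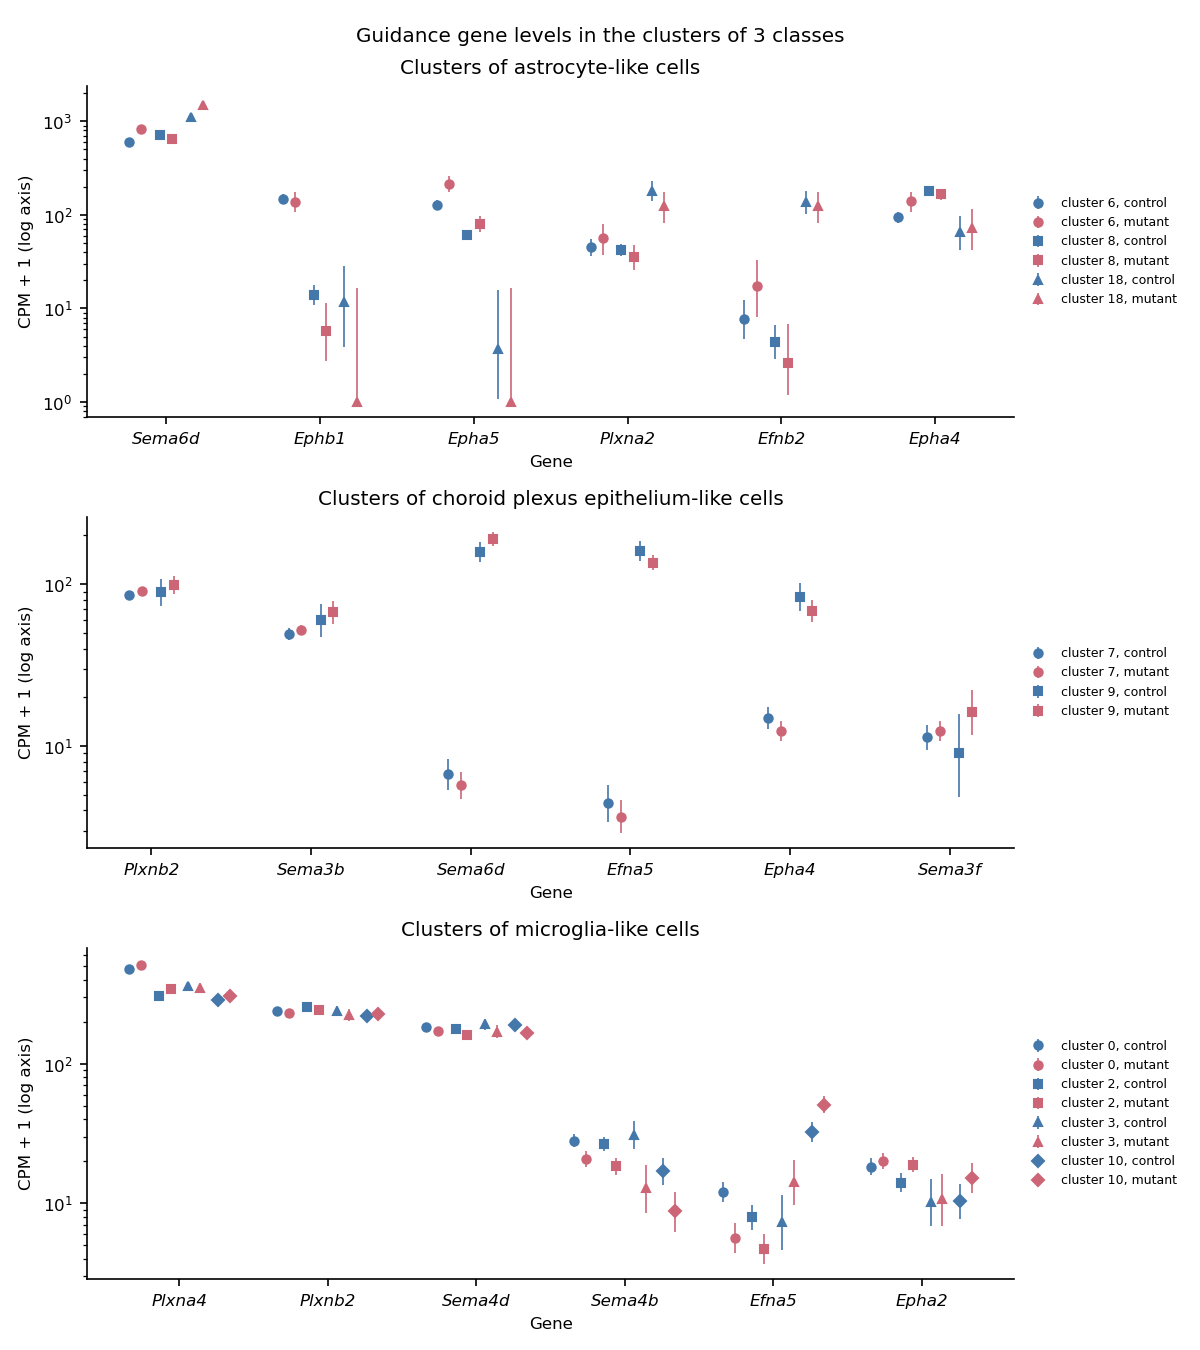
CPM plus 1 (log axis) of selected guidance genes (x axis) in the clusters of astrocyte-like, choroid plexus epithelium-like and microglia-like cells, for the control (blue) and mutant (red) library; marker shapes give the cluster and bars are Poisson 95% intervals. Ephb1 separates astrocyte cluster 6, Efnb2 astrocyte cluster 18, and Sema6d, Efna5 and Epha4 choroid plexus cluster 9, each in both libraries.

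Choroid plexus epithelium-like cells, which make the cerebrospinal fluid, had low levels of most members. Plxnb2 was highest at 84.7 CPM (79.5 to 90.1) and 90.5 CPM (86.1 to 95.1), followed by Sema3b, a secreted semaphorin, at 49.5 CPM (45.5 to 53.7) and 52.9 CPM (49.5 to 56.4). The 2 clusters of this class held these genes at similar levels but differed in other members. Cluster 9 (40 and 85 cells, led by Htr2c, Gmnc and Lmx1a) held Sema6d at 157 CPM (136 to 181) and 190 CPM (172 to 209), Efna5 at 159 and 135 CPM and Epha4 at 82.4 and 67.4 CPM. In cluster 7 (595 and 990 cells) Sema6d was at 5.7 and 4.72 CPM, Efna5 at 3.42 and 2.66 CPM and Epha4 at 14.0 and 11.4 CPM. The cells of cluster 9 were also deeper, with a median of 25852 UMIs against 15020 in cluster 7; the part of depth in this difference was not tested.

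Among the 4 microglia-like clusters Plxna4 was highest in cluster 0 (1046 and 1168 cells, led by P2ry12 among others), at 476 CPM (463 to 489) and 512 CPM (498 to 526). It was lowest in cluster 10 (322 and 316 cells, led by Ccl4, Ccl3, Lpl and Clec7a), at 287 CPM (271 to 303) and 307 CPM (290 to 324). Efna5 was at 31.4 CPM (26.4 to 37.1) and 50 CPM (43.3 to 57.5) in cluster 10 and at 3.71 to 13.3 CPM in the other 3 clusters. Plxnb2 and Sema4d varied less, between 219 and 254 CPM and between 159 and 191 CPM over the 4 clusters and both libraries.

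The smaller classes held several of the highest levels in the series. In oligodendrocyte-like cells (51 and 20), the ligand Efnb3 was at 409 CPM (372 to 448) and 353 CPM (297 to 418) and its receptor Ephb1 at 335 CPM (302 to 371) and 273 CPM (224 to 331). The same cells held Sema6a, Sema6d at 319 and 168 CPM, and Sema4d, a myelin-derived inhibitor of axon growth, at 253 and 209 CPM. Plxnb3 was at 98.2 and 121 CPM in these cells and at most 15.5 CPM in any other named class. Fibroblast-like cells (47 and 58) held Epha7 at 196 and 276 CPM, Plxna2 at 205 and 237 CPM, Efna5 at 63.0 and 231 CPM, and Epha3 at 112 and 135 CPM. In the control library this class held more choroid plexus epithelium than fibroblast marker RNA, and also pericyte marker RNA, as given below. Its control levels are therefore those of a mixed class. Ependymal-like cells (47 and 87) held Sema6d at 347 and 274 CPM, Plxnb2 at 216 and 208 CPM, Plxna4 at 106 and 109 CPM and Sema3e, a ligand that binds plexin-D1 without a neuropilin, at 60.2 and 55.5 CPM. In monocyte or dendritic cell-like cells (41 and 64) Sema4d was highest, at 174 and 136 CPM. Neuron-like cells (7 and 32) held Ephb2 at 89.7 and 80.0 CPM, Epha4 at 196 and 293 CPM, and Plxna2, Plxna4, Sema6d and Epha3 each above 100 CPM in both libraries, from few cells. Cluster 12 was rich in ligands: Efna5 at 319 CPM (293 to 347) and 265 CPM (251 to 279), Sema3a, the classical repulsive semaphorin, at 228 CPM (207 to 252) and 246 CPM (233 to 260), and Sema3d at 113 and 164 CPM. Efna5, Sema3a and Sema3d were each higher in cluster 12 than in any named class in both libraries. With cluster 12 counted as a class, 10 members were led by 1 class.

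Set out by ligand and receptor over the named classes, the most abundant partner RNAs lay in different classes for most pairs. For some they lay in the same class. For Sema3c the ligand was endothelial, while Nrp2 was highest among the 5 larger classes in control endothelial-like cells (190 CPM) and mutant BAM-like cells (104 CPM); Plxnd1 was endothelial. For Sema7a the ligand was endothelial and Plxnc1 had 1 and 0 UMIs there, against 108 and 80.7 CPM in fibroblast-like and 73.2 and 72.4 CPM in BAM-like cells. For Sema4d the ligand was highest in oligodendrocyte-like and microglia-like cells, with Plxnb1 in astrocyte-like and Plxnb2 in microglia-like cells. For Sema4a the astrocyte-like (82.0 and 67.0 CPM) and BAM-like levels were close, with Plxnd1 in endothelial-like cells. Sema6a was endothelial, Plxna2 was highest in neuron-like cells with fibroblast-like and endothelial-like cells next, and Plxna4 was highest in microglia-like cells. For Sema6d the ligand was astrocytic and Plxna1, the receptor fixed for this pair, stayed at or below 19.7 CPM in every named class. Plxna4, described above as a receptor for class 6 semaphorins, was not part of this pair. Sema5a, another ligand of A-type plexins, was highest in fibroblast-like cells, at 108 and 133 CPM. Plxna1 was also highest there, at 13.5 and 19.7 CPM, from 6 and 11 UMIs. For Sema3e the ligand was highest in ependymal-like and Plxnd1 in endothelial-like cells. Efnb2 was highest in endothelial-like cells in the control and in neuron-like cells, at 104 CPM, in the mutant library. Its receptor Ephb4 was endothelial in both. For Sema3a, highest in fibroblast-like cells at 96.7 and 126 CPM, Nrp1 was endothelial in the control library and highest in BAM-like cells among the 5 larger classes in the mutant library. For Efna5 the level was highest in neuron-like cells in the control and in fibroblast-like cells in the mutant library, with Epha4 highest in neuron-like cells in both. For Efna1 and Epha2 the ligand was endothelial, and Epha2 was microglial at 13.8 and 17.3 CPM and endothelial at 7.4 and 17.3 CPM. For Efnb1, fibroblast-like cells were highest, at 83.2 and 75.4 CPM, with Ephb2 in neuron-like cells. For Efnb3 and Ephb1 both sides were oligodendrocytic. These are RNA levels and not measures of contact or signalling.

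Between the genotypes, most measured members were close in each of the 5 larger classes. A member was measured in a class with at least 50 UMIs over both libraries. It met the size rule when its CPM differed by 1.5-fold or more in either direction between mutant and control and the interval of the ratio did not hold 1. Members whose level in a class was below 10% of that in another named class were counted apart, since free RNA reaches all droplets. The ratio lay within 1.25-fold of 1 for 8 of 11 measured members in microglia-like cells, 7 of 11 in BAM-like, 15 of 23 in astrocyte-like, 5 of 7 in choroid plexus epithelium-like and 7 of 12 in endothelial-like cells. The share of all measured genes within that range was not counted, so these counts do not set the members apart. The median log2 ratio of the members was between -0.09 and 0.08 in these classes, beside -0.02 to 0.03 for all measured genes.

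**Figure D4:**
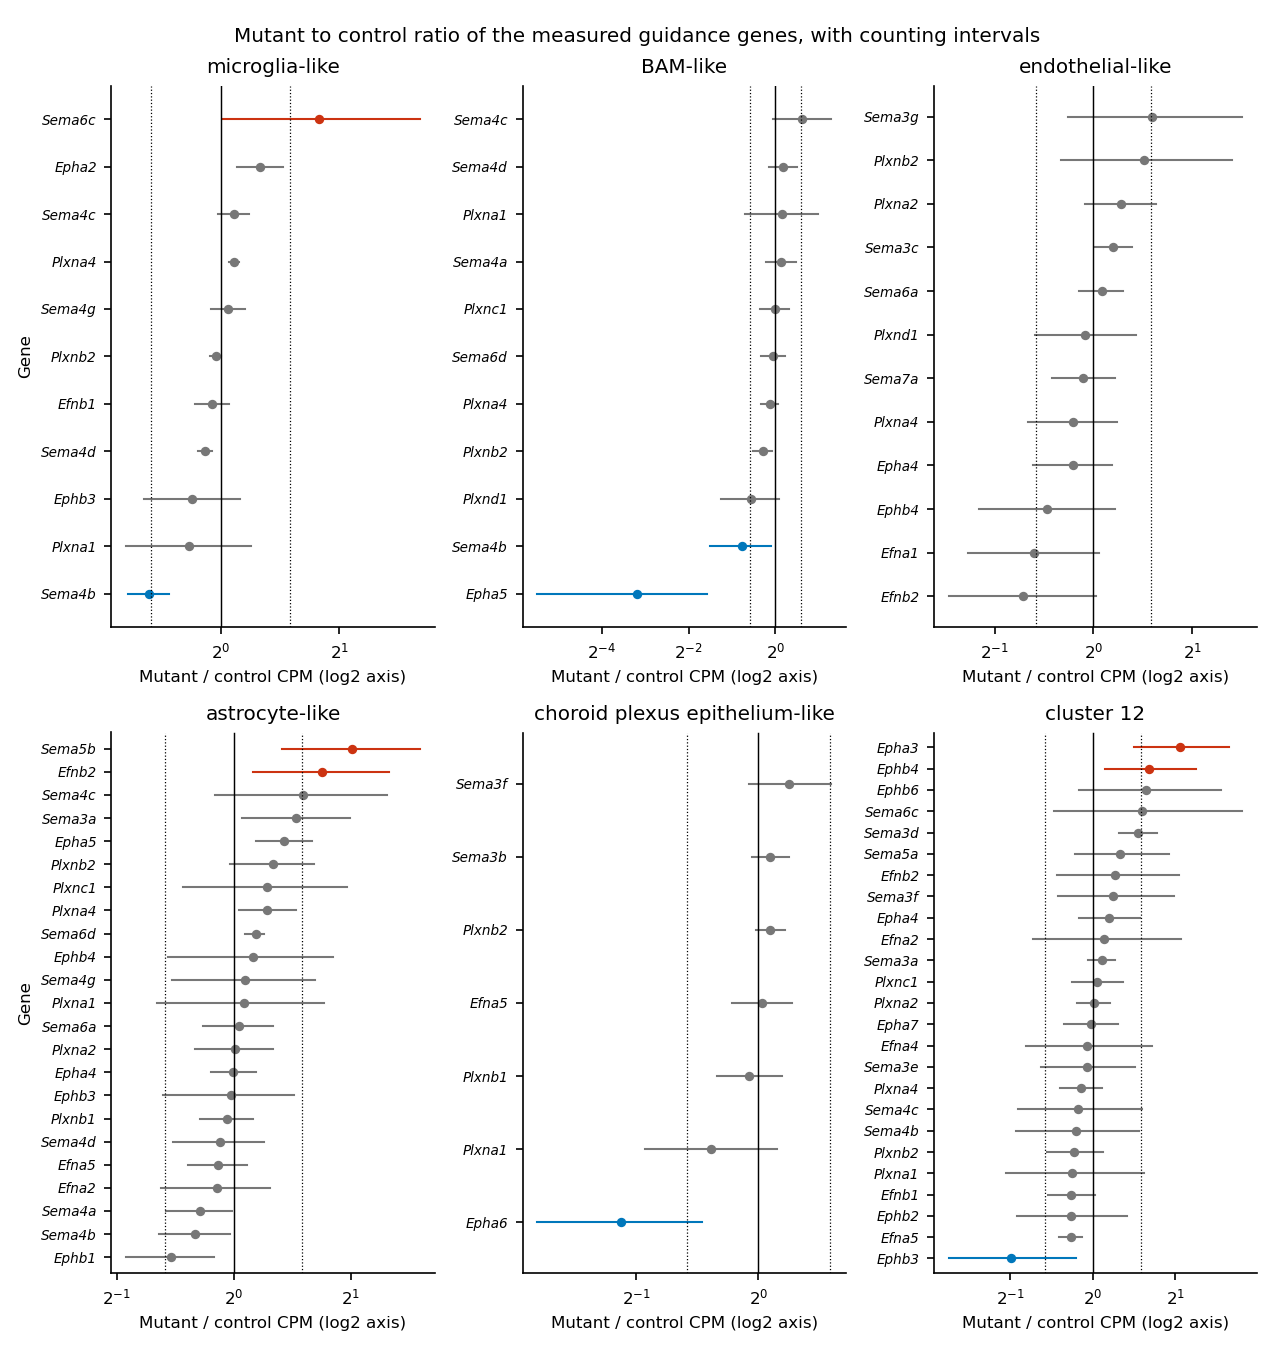
Mutant to control ratio of CPM (log2 x axis; point) with its exact conditional 95% interval (bar) for each measured guidance gene (y axis) in the 5 larger classes and cluster 12. Genes that met the size rule are red (higher in the mutant library) or blue (lower), dotted lines mark a 1.5-fold difference, and the longest excursion is Epha5 in BAM-like cells at 0.11.

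In BAM-like cells 2 of 11 measured members met the size rule, both lower and none higher, beside 2.76% of 8302 genes lower, 2.31% higher and 5.07% in either direction. Epha5 had 80 UMIs, or 19.4 CPM (15.4 to 24.1), in 357 control cells and 3 UMIs, or 2.13 CPM (0.439 to 6.23), in 143 mutant cells. The ratio was 0.11 (0.0222 to 0.333). The control UMIs came from 40 cells, with 5% of them in the highest cell; the mutant UMIs came from 3 cells. Thinned to 2000 UMIs per cell, 4.01% (2.15 to 6.76) of control and 0.735% (0.0186 to 4.03) of mutant BAM-like cells held an Epha5 UMI, so these shares overlapped in their exact binomial intervals. Astrocyte-like cells held the most Epha5 of the named classes. Astrocyte markers summed to 157 CPM in control and 92.3 CPM in mutant BAM-like cells and to 12453 and 12229 CPM in astrocyte-like cells. Pituitary endocrine markers summed to 327 and 4.26 CPM in BAM-like cells and to 63480 and 39.9 CPM in cluster 4, where Epha5 was at 25.9 and 14.6 CPM. The part of RNA from these cells in the Epha5 ratio was not tested. In microglia-like cells Epha5 was at 1.58 and 1.81 CPM. Sema4b, a transmembrane class 4 semaphorin, was at 26.7 CPM (21.9 to 32.1) and 15.6 CPM (9.79 to 23.7), from 110 and 22 UMIs, which gave a ratio of 0.586 (0.353 to 0.933). The BAM markers summed to 13296 and 11260 CPM and the microglial markers to 6477 and 5770 CPM in BAM-like cells. With cells classed one by one from their marker UMIs, Plxnd1 alone was counted under the rule in this class, while the Epha5 ratio was 0.0425 (0.00106 to 0.244).

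In microglia-like cells 2 of 11 measured members met the rule, 1 lower and 1 higher, beside 1.29% of 10357 genes lower, 0.763% higher and 2.06% in either direction. Sema4b was lower, at 25.2 CPM (23.4 to 27.1) in control and 16.5 CPM (15 to 18.1) in mutant cells, from 719 and 456 UMIs, which gave a ratio of 0.656 (0.582 to 0.738). It was lower in each of the 4 microglia-like clusters, with ratios of 0.731, 0.677, 0.392 and 0.483 in clusters 0, 2, 3 and 10. In astrocyte-like cells, the class with most Sema4b, it was at 70.2 and 55.9 CPM, which gave a ratio of 0.796 (0.642 to 0.981) that did not meet the rule. Sema4b was thus lower in the mutant library in all 3 of these classes by intervals that excluded 1. In microglia-like cells its ratio was close to the 1.5-fold limit, at 0.671 after trimmed-mean scaling and 0.731 with equal weight per cell, and under both it no longer met the rule. Sema6c, a transmembrane semaphorin, was higher on few UMIs, 21 and 36, at 0.736 and 1.3 CPM with a ratio of 1.77 (1.01 to 3.2), and its ratio was 0.889 in cluster 0. Counting in members held mainly by other classes raised the number from 2 to 7, among them Sema6d at 29.8 and 15.5 CPM, which gave a ratio of 0.521 (0.462 to 0.585). Astrocyte-like cells, where Sema6d was highest, were fewer in the mutant library, and astrocyte markers in microglia-like cells summed to 350 and 273 CPM; their part in these ratios was not tested.

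In astrocyte-like cells 2 of 23 measured members met the rule, both higher, beside 2.52% of 9776 genes higher, 1.6% lower and 4.11% in either direction. Sema5b, a transmembrane semaphorin, was at 10.0 CPM (7.81 to 12.7) and 20.2 CPM (14.4 to 27.4), from 69 and 40 UMIs, which gave a ratio of 2.01 (1.33 to 3.01), and its ratio was 3.27 (1.63 to 6.44) in cluster 6, 1.54 (0.815 to 2.78) in cluster 8 and 1.18 (0.337 to 3.87) in cluster 18, so that cluster 6 alone had an interval without 1. Efnb2 was at 11.6 CPM (9.22 to 14.5) and 19.7 CPM (14.0 to 26.9), which gave a ratio of 1.69 (1.12 to 2.51). Within the clusters the Efnb2 ratio was 2.42, 0.47 and 0.893, each with an interval that held 1. Cluster 18, which held most Efnb2 UMIs, made up 34 of 670 control and 26 of 242 mutant astrocyte-like cells. Ephb1 had a ratio of 0.689 (0.529 to 0.888), at 53.4 and 36.8 CPM, short of the rule. Cluster 6, which carried it, held 201 of the 670 and 55 of the 242 cells, and there the levels were 147 and 136 CPM.

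In endothelial-like cells none of 12 measured members met the rule, beside 3.87% of 4914 genes higher, 3.76% lower and 7.63% in either direction. The ephrins summed to 198 CPM (162 to 239) in control and 132 CPM (107 to 162) in mutant cells, which gave a ratio of 0.669 (0.501 to 0.893), from 107 and 92 UMIs. This difference depended on the processing. Under other settings given in the closing section, the control sum fell below its interval or the mutant sum rose above its own. No background share was counted for such sums. Efna1 had a ratio of 0.657 (0.415 to 1.04), Efnb2 of 0.61 (0.362 to 1.02) and Ephb4 of 0.72 (0.448 to 1.16). Efnb1, from 22 and 14 UMIs, had a ratio of 0.495 (0.234 to 1.01). Each of these intervals held 1. Efna3 and Efna5 had ratios above 1, from 1 control UMI each. The count of 0 rose to 5 with doublets kept, when Efna1, Efnb2 and Ephb4 were among them. Microglial markers summed to 3566 CPM in control and 4789 CPM in mutant endothelial-like cells and endothelial markers to 16280 and 15752 CPM; the part of the former in these ratios was not tested. The abundant semaphorins differed little, with ratios of 1.15 (1.01 to 1.31) for Sema3c, 1.06 (0.906 to 1.23) for Sema6a and 0.932 (0.75 to 1.16) for Sema7a.

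In choroid plexus epithelium-like cells 1 of 7 measured members met the rule, beside 0.544% of 8084 genes lower, 1.03% higher and 1.57% in either direction. Epha6, an Eph receptor for A-type ephrins, was at 4.17 CPM (3.08 to 5.51) and 1.91 CPM (1.31 to 2.68), from 49 and 33 UMIs spread over 48 and 33 cells, which gave a ratio of 0.458 (0.285 to 0.726). In cluster 12, 3 of 25 measured members met the rule, 2 higher and 1 lower, beside 2.24% of 9304 genes higher, 1.55% lower and 3.78% in either direction. Epha3, an EphA receptor, was at 17.1 and 35.5 CPM, which gave a ratio of 2.08 (1.41 to 3.16), with 24.4% of its mutant UMIs in 1 cell. Ephb4 was at 20 and 32 CPM, which gave a ratio of 1.6 (1.11 to 2.38), and Ephb3, an ephrin-B receptor, was at 14.3 and 7.18 CPM, which gave a ratio of 0.503 (0.297 to 0.867). Sema3d there had a ratio of 1.46 (1.25 to 1.71).

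The smaller classes are given as values only, since the share of all genes meeting the size rule was not counted there. Except in monocyte or dendritic cell-like cells, the members named below were picked because they met that rule. Of the measured members, 10 of 12 in fibroblast-like and 6 of 7 in ependymal-like cells did not meet it. Nor did 5 of 8 in oligodendrocyte-like and 2 of 6 in neuron-like cells. These counts do not set the members apart from other genes. In fibroblast-like cells Efna5 was at 63.0 CPM (41.8 to 91.0) and 231 CPM (193 to 275), which gave a ratio of 3.68 (2.43 to 5.75), with 26.4% of the mutant UMIs in 1 cell, and Plxna4 at 98.9 and 39.5 CPM, which gave a ratio of 0.399 (0.228 to 0.68). This class also differed in makeup: fibroblast markers summed to 12766 CPM in control and 47692 CPM in mutant cells, pericyte markers to 4453 and 1150 CPM and choroid plexus epithelium markers to 13637 and 1947 CPM. In ependymal-like cells Efna5 had a ratio of 0.438 (0.294 to 0.648), from 73.7 and 32.3 CPM, beside choroid plexus epithelium markers at 1629 and 5378 CPM. In oligodendrocyte-like cells the ratio was 0.525 (0.397 to 0.685) for Sema6d, 0.364 (0.127 to 0.853) for Epha4 and 0.47 (0.215 to 0.924) for Sema5a. Choroid plexus epithelium markers in these cells summed to 1215 CPM in control and 39728 CPM in mutant cells. In neuron-like cells Plxna2, Sema6d, Epha3 and Efna5 had ratios of 0.456 to 0.65, from 7 control cells. The highest control cell held 62.5% of the Sema6d, 57.9% of the Epha3, 54.5% of the Efna5 and 22.9% of the Plxna2 UMIs. In monocyte or dendritic cell-like cells the 6 measured members had ratios of 0.778 to 1.51, each with an interval that held 1. The part of the other classes' RNA in these values was not tested.

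Few of the other genes of the pathways met the size rule. Of 16 semaphorin co-receptors and other semaphorin receptors, 8 were measured in endothelial-like cells, of which 1 was lower and 2 were higher by the size rule. Nrp2, the co-receptor of Sema3c and Sema3f, was lower, at 190 CPM (155 to 231) and 92.2 CPM (71.0 to 118), which gave a ratio of 0.484 (0.348 to 0.667), and Nrp1 had a ratio of 0.704 (0.62 to 0.799). The higher genes were Trem2 at 1.62 (1.34 to 1.98) and Tyrobp at 1.78 (1.48 to 2.13), a receptor and its adaptor that are known from microglia, where they were at 2168 and 2660 CPM in the control library. None of the 7 genes of this list measured in microglia-like cells or of the 7 in BAM-like cells met the rule. Of 26 plexin signalling genes, 10 to 20 were measured per class in the 5 larger classes and cluster 12, and the kinase gene Fyn alone met the rule, at 24.5 and 66.8 CPM in BAM-like cells, which gave a ratio of 2.73 (2.04 to 3.65). Of 25 genes of ephrin and Eph signalling and cleavage, Tiam1, an activator of the GTPase Rac, was higher in endothelial-like cells, at 135 and 223 CPM, which gave a ratio of 1.65 (1.24 to 2.21). It was lower in microglia-like cells, at 66.1 and 40.9 CPM, which gave a ratio of 0.62 (0.575 to 0.668). The phosphatase gene Ptpn11 was higher in endothelial-like cells, with a ratio of 2.01 (1.16 to 3.61), and Dvl2 in cluster 12, with 1.73 (1.02 to 3.09). Of 22 genes of other guidance families, the netrin receptor Dcc was lower in astrocyte-like cells, at 151 and 77.1 CPM, which gave a ratio of 0.511 (0.428 to 0.606), and the netrin genes Ntn4 and Ntng1 were lower in cluster 12, with ratios of 0.547 and 0.33. In all other combinations of list and class no measured gene met the rule. The background shares given above for each class apply to these counts as well.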

How the data were processed

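The authors deposited 1 filtered gene-by-barcode matrix of UMI counts per library, made with Cell Ranger 7.1.0 per the file headers; the submitters' processing notes name GRCm38.p6 and mm10. Cells needed 500 or more detected genes and a mitochondrial share of UMIs no higher than 10%, and doublets called by Scrublet on all barcodes with at least 500 genes were removed (2.23% and 2.61%). Cells were clustered with scanpy 1.11.5 (scaling to 10000 UMIs, 2000 variable genes without sex-linked, mitochondrial and guidance genes, 30 components, 15 neighbours, Leiden resolution 1), which gave 23 clusters. A marker passed in a cluster when 25% or more of the cells held it and its CPM reached 25% of that in the highest cluster; 3 passing markers of a class gave the name. Another class blocked the name when at least 3 of its markers passed and its passing share was at least 0.5 of the best one's. A cluster also stayed unnamed when its 10 leading genes held more markers of another class than of its own (cluster 4), or none of its own at a median depth under 0.333 of that over all cells (cluster 1); both had 9 passing microglial markers. This rule was revised after a first, stricter naming was seen, which had left the BAM-like and ependymal-like clusters unnamed.

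For each library, the counts of all cells of a class were added up and expressed as CPM of their total; intervals used scipy 1.17.1. The calculation was tested on simulated Poisson counts. These share the assumption of the intervals and hold no variation between cells or animals, so they check the arithmetic only. With 1 library per genotype no test was made, and depth limits the members of small classes most. The members and gene lists were chosen with earlier results of these data known. Named in the text are the members that met the size rule, the 4 of highest mean CPM per class, those led by 1 class and fixed ligand and receptor pairs; genes compared between clusters of a class were chosen after their values were seen. Gene positions came from the GRCm38 annotation (48 of 48 matched) and promoters from RefSeq (42 of 48). Alternatives covered cell filters, clustering, classing, scaling, weights and thresholds.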

Additional observations from a re-analysis of the deposited data

Results flagged for a closer look

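Unnamed clusters other than cluster 12 were not compared between genotypes. In these, 3 members with at least 50 UMIs in the cluster were at 2 times or more the level of every named class in both libraries. Plxna4 was at 817 CPM (771 to 866) in control and 825 CPM (782 to 870) in mutant cells of cluster 1, beside 370 and 400 CPM in the highest named class, the microglia-like cells. This cluster of 473 and 556 cells was shallow, with a median of 2355 and 2637 UMIs and 1.86% and 1.51% ribosomal UMIs, and its microglial markers summed to 13529 and 11407 CPM. Efna5 was at 688 CPM (565 to 831) and 821 CPM (690 to 968) in cluster 20, beside 269 and 231 CPM in the highest named class. All 11 control and 17 mutant cells of this cluster, led by Npy, Frzb and Foxd3, held an Efna5 UMI. Epha6 was at 38.4 CPM (30 to 48.4) in control and 12.5 CPM (8.69 to 17.4) in mutant cells of cluster 4, beside 4.5 and 3.59 CPM in the highest named class. Its UMIs came from 8 and 12 cells, with 42.3% and 45.7% of them in 1 cell, and pituitary endocrine markers in this cluster summed to 63480 and 39.9 CPM.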

How the results depend on the processing

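Of 60 recomputed counts of members meeting the size rule, 35 stayed within 1.5 times the reported count and 25 did not. In BAM-like cells the 2 became 1 at Leiden resolution 2, with cells classed one by one and at 2-fold. In astrocyte-like cells the 2 became 5 with cells classed one by one and 1 at 2-fold. In choroid plexus epithelium-like cells the 1 became 0 with cells classed one by one, 2 with equal weight per cell and 3 with members low in the class counted in. In endothelial-like cells the 0 became 5 with doublets kept, 3 with equal weight per cell, and 1 with no mitochondrial cap, with guidance genes in the clustering, at resolution 2, with at least 20 UMIs, with no minimum of UMIs and with low members counted in. In microglia-like cells the 2 became 1 with no mitochondrial cap, with doublets kept, with at least 1000 genes, at resolution 2, with cells classed one by one, after trimmed-mean scaling and with equal weight per cell, 0 at 2-fold and 7 with low members counted in.

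Of 48 summed levels, 16 moved beyond their counting interval. Endothelial-like semaphorins were at 2021 (control) and 2256 (mutant) CPM with at least 1000 genes, 2048 and 2346 with cells classed one by one, and 1710 in the mutant library with doublets kept. Microglia-like plexins were at 650 and 674 CPM with no mitochondrial cap, 640 and 661 with cells classed one by one, and 635 in the control at resolution 2. Endothelial-like ephrins were at 152 CPM in the control at resolution 2, and in the mutant at 165 with at least 1000 genes and 174 with cells classed one by one. Astrocyte-like Eph receptors were at 299 CPM in the control with doublets kept, and at 337 and 307 with cells classed one by one. The cause of these shifts was not tested. All 56 recomputed ratios of members that met the rule kept their direction, and the count of members led by 1 class was 10 to 18 over 5 alternatives, of which counting cluster 12 as a class and taking classes of at least 20 cells were chosen after seeing the data. No paired analysis was possible because there was 1 library per genotype; for the same reason no library could be left out.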
